A study of Mus musculus with 119 samples.

Results

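*Kdm6b*, also called *Jmjd3*, encodes a histone demethylase that removes the repressive trimethyl mark from lysine 27 of histone H3. It was taken by name from the table of normalized RNA-seq values and is 1 of the 18098 genes in it, described here in all 119 libraries and 25 groups. Bone marrow–derived macrophages (BMDMs) of C57BL/6 mice were left without LPS or stimulated with LPS at 100 ng/ml, to ask which genes the kinase TPL-2 (gene *Map3k8*) controls. There were 22 libraries of WT cells at 0, 0.5, 1, and 2 h of LPS, 24 of *Map3k8*[D270A] cells, which carry kinase-inactive TPL-2, and 16 of *Elk1*-/-*Elk4*-/- cells, which lack a pair of ternary complex factors (TCFs), both over the same times. There were 18 libraries of *Nfkb1*[SS/AA] cells at 0, 0.5, and 1 h, in which p105, the partner that holds TPL-2, lacks the serines that the IκB kinase phosphorylates. WT cells were also given the MKK1/2 inhibitor PD0325901 at 0.1 µM (21 libraries), its solvent DMSO (3), or the RSK inhibitor RSKi47 at 2 µM (15). PD0325901 cells were sampled after 10, 40, and 70 min without LPS. Those given LPS for 0.5 or 1 h had 10 min of inhibitor beforehand, and DMSO cells had 10 min of solvent. RSKi47 cells had 10 min of inhibitor before 0, 0.5, 1, and 2 h of LPS, so their 0 h is 10 min of inhibitor. The mutations are present in the whole mouse, and the labels do not say which libraries came from the same animal, so p-values measure the spread between libraries.

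The methyl mark that KDM6B removes is written by Polycomb repressive complex 2 (PRC2) and keeps genes silent. In macrophages, *Kdm6b* is known as a gene that LPS induces through NF-κB, and its product has been linked to inflammatory genes and, through *Irf4*, to alternative activation. TPL-2 is freed from p105 in LPS-stimulated cells, activates MKK1/2, and thereby ERK1/2, whose substrates include the RSK kinases and the TCFs ELK1 and ELK4.

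*Kdm6b* (gene ID 216850) is on the minus strand of chromosome 11, at 69398508 to 69420367 in the RefSeq annotation of GRCm38.p6, the assembly called mm10. In GENCODE vM21 the gene spans 69398508 to 69413675. Its coding transcript Kdm6b-201 has 23 exons and is 6654 bases long once spliced, with a coding length of 1641 codons that begins in exon 4. The antisense gene *Kdm6bos* (69401513 to 69402700, plus strand) lies over 4 of these exons. The reads are described as strand-specific. Whether strand was used in the counting is not stated, so reads of the pair may not be fully separated.

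Levels are log2 normalized values as deposited, 1 per gene and library, and the depth of the libraries is unknown here. The sources do not state the transformation behind them. If it drew the libraries together, the differences below understate the true ones, whereas a ratio of differences is free of the base of the logarithm. All 8 macrophage markers (*Adgre1*, *Csf1r*, *Cd14*, *Cd68*, *Itgam*, *Lyz2*, *Mertk*, and *Fcgr1*) passed the filter on low values, and none of 4 lymphocyte markers did. In *Elk1*-/-*Elk4*-/- cells at 1 h of LPS, *Elk1* was lower than in WT by a log2 difference of -3.07 and *Elk4* by -2.28, and both were lower at every time. The [D270A] change alters the TPL-2 protein, and *Map3k8* mRNA checks nothing there. WT libraries with LPS came only from the experiment with *Map3k8*[D270A] cells, so for every other arm the arm and its experiment cannot be told apart.

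LPS raised *Kdm6b* in WT cells steeply and for a short time. Without LPS, the 6 WT libraries had levels from 7.28 to 7.66, with a median of 7.48. At 0.5 h they ranged from 8.33 to 9.85 (median 9.26), and at 1 h from 11.87 to 12.44 (median 12.08). At 2 h the 4 libraries were back at 9.72, 9.95, 9.91, and 9.73. The levels at 0, 0.5, and 1 h did not overlap, and those at 2 h overlapped only the highest of 0.5 h. The log2 differences from 0 h were 1.68 ± 0.14 (SE) at 0.5 h, 4.64 ± 0.14 at 1 h, and 2.36 ± 0.16 at 2 h (adjusted p = 1.89e-14, 1.50e-34, and 9.78e-20). Read as log2 values, these are rises of 3.21-fold, 24.98-fold, and 5.13-fold. At 1 h *Kdm6b* had rank 15 among the 11884 genes tested, ordered from the largest rise, and the share of genes called higher at the 3 times was 7.82%, 23.8%, and 34.7%. From 0.5 to 1 h the step was 2.96 ± 0.14 (20.3% of genes called higher). Between 1 and 2 h *Kdm6b* fell by 2.28 ± 0.16 on the log2 scale (adjusted p = 7.06e-19, with 31.7% of genes called lower).

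**Figure D1:**
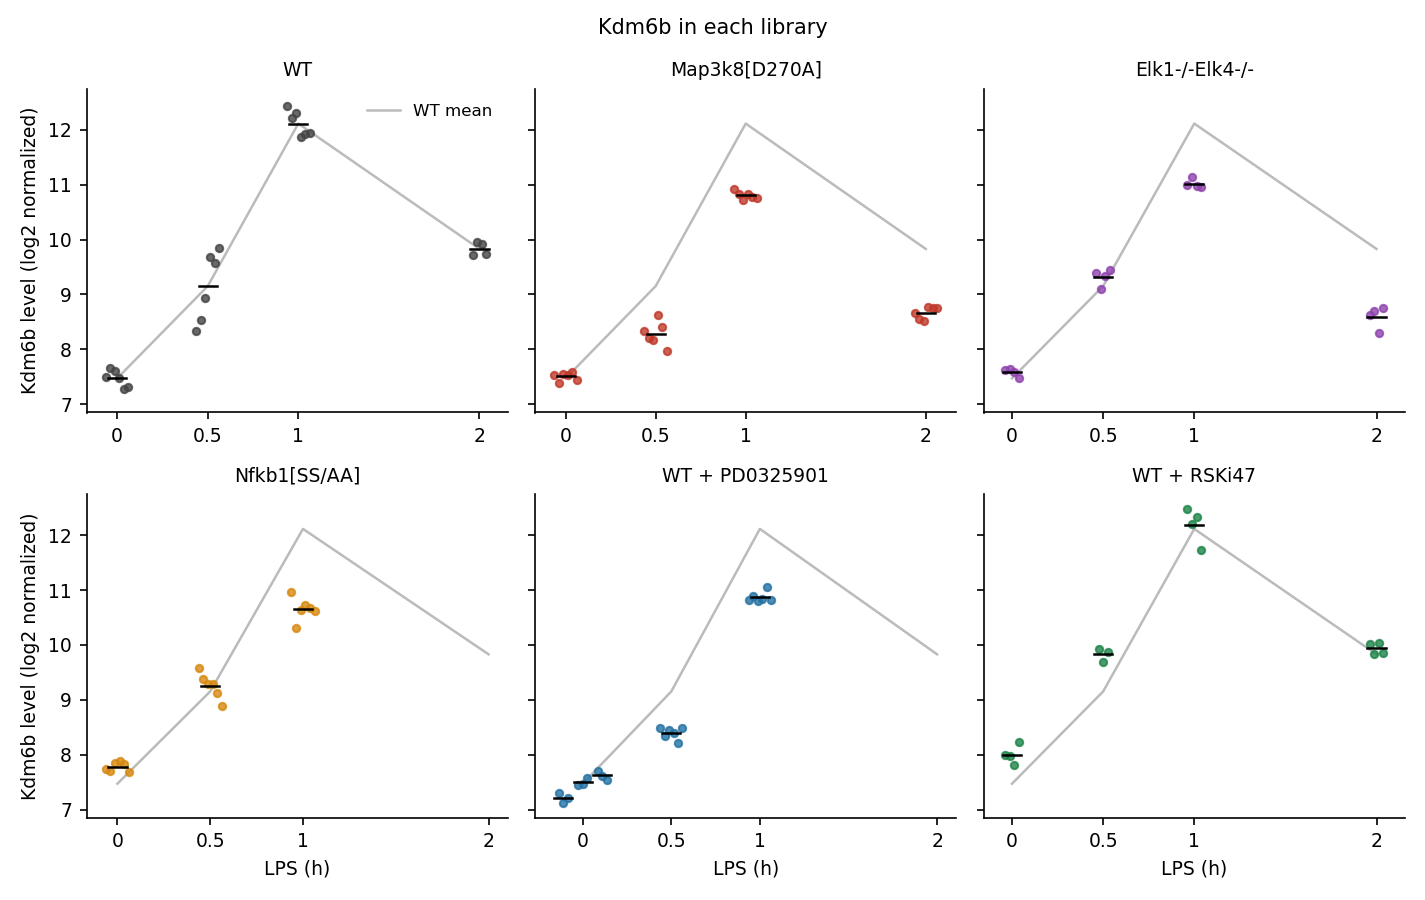
Log2 normalized level of *Kdm6b* (vertical axis) against time of LPS in hours (horizontal axis) in 6 arms. Each point is a library, each black bar a group mean, and the grey line joins the WT means; the 3 clusters at 0 h under PD0325901 are 10, 40, and 70 min of inhibitor, from left to right. At 1 h the *Map3k8*[D270A], *Elk1*-/-*Elk4*-/-, *Nfkb1*[SS/AA], and PD0325901 libraries, at 10.30 to 11.13, lie below all WT libraries, whereas RSKi47 libraries lie from 11.72 to 12.48.

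Among the 25 groups the order of mean levels began with RSKi47 at 1 h (12.19 ± 0.33, SD, n = 4) and WT at 1 h (12.11 ± 0.23, n = 6), whose ranges overlapped. A gap without overlap followed, and below it stood *Elk1*-/-*Elk4*-/- (11.01 ± 0.08, n = 4), PD0325901 (10.87 ± 0.09, n = 6), *Map3k8*[D270A] (10.81 ± 0.07, n = 6), and *Nfkb1*[SS/AA] cells (10.65 ± 0.21, n = 6), all at 1 h, each overlapping the next. All 6 groups at 1 h thus lay above every group at another time. The lowest were the groups without LPS, from PD0325901 at 10 min (7.21 ± 0.09, n = 3) to RSKi47, whose 4 libraries ranged from 7.81 to 8.22. Next to each other in the order, the remaining groups overlapped in range except at 3 places, which were *Nfkb1*[SS/AA] at 1 h above RSKi47 at 2 h, RSKi47 above *Elk1*-/-*Elk4*-/- at 0.5 h, and DMSO above PD0325901 at 10 min.

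In *Map3k8*[D270A] cells *Kdm6b* started at the WT level and reached a lower peak. Their 6 libraries ranged from 7.40 to 7.60 (median 7.53) without LPS, from 7.97 to 8.62 (median 8.27) at 0.5 h, from 10.72 to 10.92 (median 10.80) at 1 h, and from 8.52 to 8.77 (median 8.71) at 2 h. At 1 and 2 h every one of them was below every WT library, and at 0.5 h the ranges overlapped. The log2 difference from WT was 0.04 ± 0.14 at 0 h (adjusted p = 0.96; 95% CI -0.25 to 0.32), -0.87 ± 0.14 at 0.5 h (adjusted p = 2.88e-05), -1.31 ± 0.14 at 1 h (adjusted p = 2.51e-10), and -1.16 ± 0.16 at 2 h (adjusted p = 4.70e-08). The share of genes called lower was 0.892%, 4.64%, and 13.1% at the 3 times with LPS. At 1 h the difference had rank 14 among all genes, ordered from the lowest. LPS still raised *Kdm6b* in these cells, by 0.78 ± 0.14, 3.30 ± 0.14, and 1.16 ± 0.14 in order of time, where 3.91%, 21.8%, and 34.9% of genes were called higher. The response differed from that of WT by -0.90 ± 0.20 at 0.5 h (adjusted p = 0.028), -1.34 ± 0.20 at 1 h (adjusted p = 3.58e-06), and -1.20 ± 0.21 at 2 h (adjusted p = 2.58e-05), while 0.109%, 1.3%, and 8.6% of genes were called lower in this test. As a ratio of log2 differences the rise was 46.2% ± 9.2, 71.0% ± 3.7, and 49.3% ± 6.8 (SE) of that in WT cells. On the linear scale the gap is wider, with a 9.84-fold rise at 1 h against 24.98-fold in WT. The WT rise at 0.5 h ran from 1.02 to 2.35 across the alternatives, so the share at that time is less certain than its SE. WT libraries of the same number deviated together between 0 and 0.5 h, as did *Map3k8*[D270A] libraries. With the replicate number as a block the difference in response at 0.5 h stayed at -0.90 and was not called (adjusted p = 0.25). Of the 5 neutrophil markers tested, 0 differed from WT at any time by limma's test, and 0 had an unadjusted p below 0.05 (summed log2 level 6.14 to 7.54). Of 8 macrophage markers, *Cd14* (-0.39) and *Lyz2* (-0.14) were lower than in WT at 1 h, where 4.64% of all genes were, and *Cd14* was lower in the LPS response too (-0.44). At 2 h 3 of the 8 were lower, *Cd14* (-0.45), *Lyz2* (-0.21), and *Adgre1* (-0.20), and of 4 dendritic cell markers both that were tested, *Zbtb46* (-0.78) and *Ccr7* (-0.54), were lower too. Both rose with LPS in WT cells, by 2.10 and 1.31 at 2 h, and the part of these markers in the 1 and 2 h results was not tested.

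The 0.5 h value in WT cells depended on the replicate number. WT replicates 4, 5, and 6 stood at 8.33, 8.54, and 8.94, and replicates 7, 8, and 9 at 9.68, 9.58, and 9.85. The 2 sets did not overlap at this time and differed by 1.11 ± 0.11 (adjusted p = 1.38e-08). This test was added after the libraries were seen, so its p-value is no independent support for the split. Of all genes, 26.6% differed between the WT sets at 0.5 h in either direction. At 1 h the order was turned round, with 12.44, 12.21, and 12.30 in replicates 4 to 6 and 11.87, 11.92, and 11.95 in replicates 7 to 9 (difference -0.41 ± 0.11, adjusted p = 0.0091). *Map3k8*[D270A] cells showed no such split, since replicates 1 to 3 had a mean of 8.24 and replicates 4 to 6 of 8.33 at 0.5 h. The difference between the genotypes at 0.5 h was -0.36 for WT replicates 4 to 6 with *Map3k8*[D270A] replicates 1 to 3 (adjusted p = 0.087 in these libraries alone), and -1.37 for WT replicates 7 to 9 with *Map3k8*[D270A] replicates 4 to 6. These values differed from each other by -1.01 ± 0.16 (adjusted p = 0.00019, with 0.909% of genes differing in either direction). At 1 h they were -1.50 and -1.12 (difference 0.37 ± 0.16, adjusted p = 0.31), and at 2 h -1.29 and -0.97, the latter with a single WT library. What set the replicates apart is not given in the labels, and its part in the 0.5 h result was not tested.

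**Figure D2:**
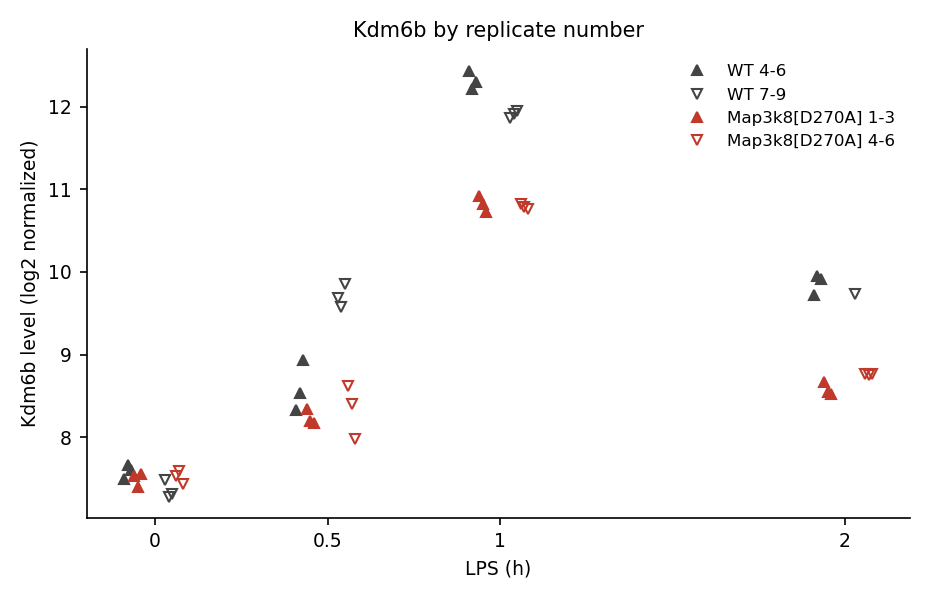
Log2 normalized level of *Kdm6b* (vertical axis) against hours of LPS (horizontal axis) in WT and *Map3k8*[D270A] libraries, drawn by replicate number; filled and open triangles are the lower and the higher numbers of each genotype. At 0.5 h WT replicates 4 to 6 lie at 8.33 to 8.94 and WT replicates 7 to 9 at 9.58 to 9.85, while at 1 h both sets are above all *Map3k8*[D270A] libraries.

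In *Elk1*-/-*Elk4*-/- cells no difference from WT was detected early, and the level was lower at 1 and 2 h. *Kdm6b* levels were 7.63, 7.63, 7.58, and 7.48 at 0 h and 9.39, 9.09, 9.33, and 9.45 at 0.5 h, within or close to the WT range. At 1 h they lay between 10.95 and 11.13 (mean 11.01), and at 2 h they were 8.63, 8.70, 8.30, and 8.75, with no overlap with WT. The log2 differences from WT were 0.11 ± 0.16 at 0 h and 0.16 ± 0.16 at 0.5 h (adjusted p = 0.58 and 0.41; 95% CI -0.15 to 0.48 at 0.5 h), then -1.10 ± 0.16 at 1 h and -1.23 ± 0.17 at 2 h (adjusted p = 6.25e-08 and 3.64e-08). LPS raised the level by 1.74 ± 0.17, 3.43 ± 0.17, and 1.01 ± 0.17 at the 3 times (3.22%, 16.6%, and 35.2% of genes called higher). In this arm 26.2% and 23.1% of all genes were called lower at 1 and 2 h. The LPS response differed from WT by 0.05 ± 0.22 at 0.5 h (adjusted p = 1.0), -1.21 ± 0.22 at 1 h (adjusted p = 0.00049, with 0.942% of genes called lower), and -1.34 ± 0.23 at 2 h (adjusted p = 2.28e-05, with 8.76%). The step from 0.5 to 1 h was 1.70 (14.1% of genes called higher) against 2.96 in WT, a difference of -1.27 ± 0.22 (adjusted p = 0.00028, with 1.03% called lower). Against WT replicates 7 to 9 alone this step difference was -0.51 (adjusted p = 0.11). The difference at 0.5 h changed sign with the WT replicates used, from 0.72 (adjusted p = 1.11e-06) against replicates 4 to 6 to -0.39 (adjusted p = 0.0022) against replicates 7 to 9. Neutrophil marker RNA (8 genes, of which 5 passed the filter) summed to a log2 level of 10.04 to 11.04 in these libraries against 6.24 to 7.74 in WT, and both tested dendritic cell markers, *Zbtb46* (-1.44) and *Ccr7* (-0.29), were lower than in WT at 2 h. The part of either in the *Kdm6b* result was not tested. In bulk RNA, fewer cells that express a gene and less RNA per cell cannot be told apart.

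*Nfkb1*[SS/AA] cells had the lowest mean at 1 h of the arms. Their libraries ranged from 7.69 to 7.88 (median 7.79) at 0 h, from 8.89 to 9.58 (median 9.29) at 0.5 h, and from 10.30 to 10.96 (median 10.65) at 1 h. All 6 lay above WT at 0 h, within the wide WT range at 0.5 h, and below WT at 1 h. The log2 difference from WT was 0.31 ± 0.12 at 0 h (adjusted p = 0.040, with 16.9% of genes called higher), 0.11 ± 0.12 at 0.5 h (adjusted p = 0.53), and -1.46 ± 0.12 at 1 h (adjusted p = 6.47e-19, with 21.9% called lower). LPS raised it by 1.48 ± 0.12 at 0.5 h and 2.87 ± 0.12 at 1 h (8.55% and 22.5% of genes called higher). The response differed by -0.20 ± 0.17 at 0.5 h (adjusted p = 1.0) and by -1.77 ± 0.17 at 1 h (adjusted p = 1.28e-14, with 4.3% called lower), and the step from 0.5 to 1 h by -1.57 ± 0.17 (adjusted p = 3.78e-12, with 3.04% called lower). Across the alternatives this step difference kept its call and ran from -2.33 to -0.82. The 0 h difference was 0.20 against WT replicates 4 to 6 alone (adjusted p = 0.18). With a replicate block it was 0.22 (adjusted p = 0.10), a value that rests only on the numbers 4 to 6 that both arms share. Neutrophil markers summed to a log2 level of 6.73 to 8.35 in these libraries, 3 of the 5 tested were called higher than in WT at 1 h (median difference 0.51, with 20.5% of all genes called higher), and their part in the *Kdm6b* results was not tested. At 0.5 h the sign again followed the WT replicates, with 0.66 against replicates 4 to 6 and -0.45 against replicates 7 to 9 (adjusted p = 9.68e-07 and 0.000469).

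With PD0325901 the level after LPS lay near that of *Map3k8*[D270A] cells. *Kdm6b* ranged from 8.21 to 8.50 (median 8.43) at 0.5 h and from 10.80 to 11.05 (median 10.83) at 1 h, so that all 6 libraries were below WT at 1 h. The log2 difference from WT was -0.75 ± 0.12 at 0.5 h (adjusted p = 5.36e-07, with 15% of genes called lower) and -1.25 ± 0.12 at 1 h (adjusted p = 5.71e-15, with 19.3%). Against inhibitor alone for the same total time, LPS raised *Kdm6b* by 0.90 ± 0.15 and 3.25 ± 0.15, while 9.38% and 21.9% of genes were called higher. As a ratio of log2 differences this is 53.4% ± 9.9 and 69.9% ± 3.8 (SE) of the WT rise, and on the linear scale a 9.49-fold rise at 1 h. The 0.5 h share is less certain than its SE, as the WT rise then ran from 1.02 to 2.35 across the alternatives. The difference in response was -0.78 ± 0.19 (adjusted p = 0.011, with 0.76% called lower) at 0.5 h and -1.40 ± 0.19 (adjusted p = 2.10e-08, with 2.48%) at 1 h. The 0.5 h values depended on the settings, and 12 of 23 alternatives kept the call of the difference in response. Against WT replicates 4 to 6 alone that difference was -0.12 (adjusted p = 0.94) and the difference in level -0.20 (adjusted p = 0.15). At the other extreme, against WT replicates 7 to 9, they were -1.45 and -1.31. With array weights the difference in response was -0.29 (adjusted p = 0.11). Neutrophil markers summed to a log2 level of 7.29 to 8.81 here, and all 5 tested were called higher than in WT at both times (median difference 1.61, with 14.5% and 16.4% of all genes called higher). Their part in the *Kdm6b* results was not tested.

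With RSKi47 no difference from WT was detected at the peak. *Kdm6b* levels were 7.99, 7.98, 7.81, and 8.22 at 0 h, 9.92, 9.69, and 9.88 at 0.5 h, 12.48, 12.21, 12.34, and 11.72 at 1 h, and 10.02, 9.84, 10.04, and 9.85 at 2 h. At 0 h all 4 libraries stood above WT, and from 0.5 h on the ranges overlapped. The log2 difference from WT was 0.53 ± 0.14 at 0 h (adjusted p = 0.00062, with 26.8% of genes called higher) and 0.68 ± 0.15 at 0.5 h (adjusted p = 8.48e-05, with 23.7%). It was 0.07 ± 0.14 at 1 h (adjusted p = 0.68; 95% CI -0.20 to 0.34) and 0.11 ± 0.15 at 2 h (adjusted p = 0.56; 95% CI -0.19 to 0.40). The 1 h value rested in part on RSKi47 replicate 4, the lowest at 11.72, without which it was 0.23 (adjusted p = 0.19), and it was -0.02 without replicate 1. LPS raised *Kdm6b* by 1.83 ± 0.16, 4.19 ± 0.15, and 1.94 ± 0.15 (3.39%, 15%, and 32.5% of genes called higher). The reference here was 10 min of inhibitor, which is not matched in total time as it was for PD0325901. The response differed from WT by 0.15 ± 0.20, -0.46 ± 0.19, and -0.42 ± 0.20 at the 3 times, none of which passed (adjusted p = 1.0, 0.18, and 0.13). With 1 replicate left out the first ranged from -0.02 (without WT replicate 4) to 0.32 (without WT replicate 9) and the second from -0.57 (without RSKi47 replicate 3) to -0.23 (without RSKi47 replicate 4), and none of these passed either. Against WT replicates 7 to 9 alone the difference was 0.12 at 0.5 h (adjusted p = 0.42) and 0.27 at 1 h (adjusted p = 0.037). The 0.5 h difference rested on the WT replicates used, and by the exact two-sided permutation test over all 9 libraries it had p = 0.095. Fibroblast markers (4 genes, of which 2 passed the filter) summed to a log2 level of 5.04 to 9.41 with RSKi47 and 3.91 to 4.90 in WT. Neutrophil markers summed to 7.08 to 8.59 with RSKi47 and 6.24 to 7.74 in WT. The part of either in the *Kdm6b* results was not tested at any time.

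**Figure D3:**
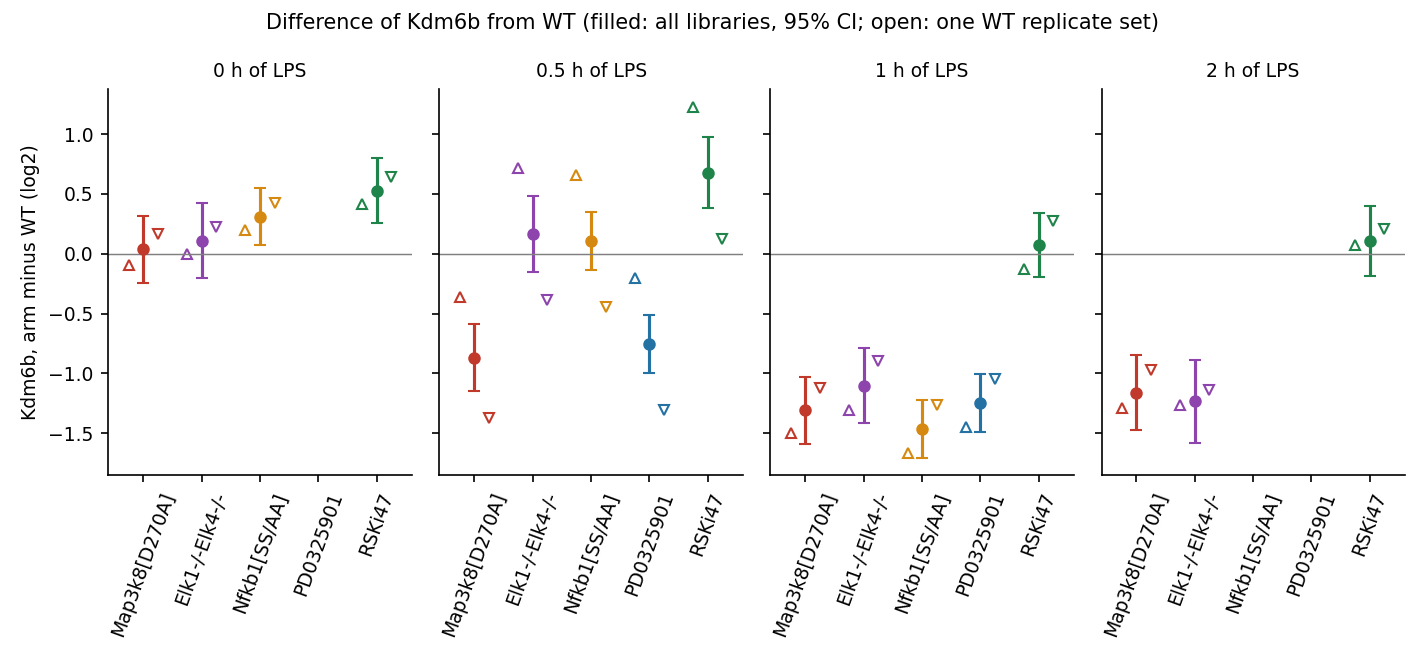
Difference of *Kdm6b* from WT (vertical axis, log2) for 5 arms (horizontal axis) at 4 times of LPS. Filled points use all libraries, with 95% confidence intervals; open triangles use only WT replicates 4 to 6 (upward, left) or 7 to 9 (downward, right), in *Map3k8*[D270A] cells with their own matching replicates, and at 2 h the downward ones rest on a single WT library. At 1 h all estimates for the first 4 arms lie below 0 under either set, whereas at 0.5 h those of *Elk1*-/-*Elk4*-/- and *Nfkb1*[SS/AA] cells lie on both sides of 0.

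The arms were also set against each other. These differences do not use the WT levels, but their errors come from fits whose pooled spread includes the WT libraries. At 0.5 h *Kdm6b* was higher in *Elk1*-/-*Elk4*-/- than in *Map3k8*[D270A] cells by 1.03 ± 0.16 (adjusted p = 3.41e-07, with 25.8% of genes called higher) and higher in *Nfkb1*[SS/AA] than in *Map3k8*[D270A] cells by 0.98 ± 0.12 (adjusted p = 9.51e-11, with 20.5%), in both cases with no overlap of libraries. PD0325901 differed from *Map3k8*[D270A] by 0.12 ± 0.12 at this time (adjusted p = 0.50; 95% CI -0.13 to 0.36). At 1 h the differences from *Map3k8*[D270A] cells were 0.21 ± 0.16 in *Elk1*-/-*Elk4*-/-, -0.16 ± 0.12 in *Nfkb1*[SS/AA], and 0.06 ± 0.12 in PD0325901 cells (adjusted p = 0.27, 0.30, and 0.71). The first of these was called when only the groups compared were fitted (SE 0.05, adjusted p = 0.0041). At that time 26.1% of genes were called higher in *Elk1*-/-*Elk4*-/- than in *Map3k8*[D270A] cells. The *Elk1*-/-*Elk4*-/- libraries nevertheless all lay above the *Map3k8*[D270A] libraries at 1 h, and the exact two-sided permutation test of these 10 libraries gave p = 0.0048. RSKi47 exceeded *Map3k8*[D270A] by 1.55 ± 0.15 and 1.38 ± 0.14 and PD0325901 by 1.43 ± 0.15 and 1.32 ± 0.14 at 0.5 and 1 h (adjusted p from 2.17e-15 to 6.41e-14). Genes called higher made up 26.9% and 25% of all against *Map3k8*[D270A], and 25.1% and 28.6% against PD0325901. The inhibitors act on different kinases and were used at different doses.

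The fall from 1 to 2 h was not shown to differ in the 4 arms that were followed to 2 h. The log2 difference was -2.28 ± 0.16 in WT, -2.14 ± 0.14 in *Map3k8*[D270A], -2.42 ± 0.17 in *Elk1*-/-*Elk4*-/-, and -2.25 ± 0.15 in RSKi47 cells, where 29.1%, 27%, and 24.4% of genes were called lower in the mutant and inhibitor arms. Its difference from WT was 0.15 ± 0.21 (95% CI -0.27 to 0.57), -0.13 ± 0.23 (95% CI -0.60 to 0.33), and 0.04 ± 0.20 (95% CI -0.36 to 0.44), with adjusted p = 0.77, 0.79, and 0.94. The step from 0.5 to 1 h differed from WT by -0.44 ± 0.20 in *Map3k8*[D270A], -0.49 ± 0.17 in PD0325901, and -0.61 ± 0.20 in RSKi47 cells, which did not pass with all libraries (adjusted p = 0.51, 0.25, and 0.074). With array weights they passed, at -0.85, -0.94, and -0.98 (adjusted p = 0.0011, 1.37e-07, and 9.01e-06). In the fit over all libraries, the weights of WT replicates 4 to 6 at 0.5 h were 1.24 to 1.90. Those of replicates 7 to 9 were 0.28 to 0.53, so this setting leaned to the former. With WT replicates 4 to 6 the step differences were -1.13, -1.25, and -1.36 and passed. With WT replicates 7 to 9 they were 0.25, 0.26, and 0.15 and did not. With 1 replicate left out they ranged from -0.61 to -0.21, -0.67 to -0.26, and -0.78 to -0.38. The lowest value of each was without WT replicate 9 and the highest without WT replicate 4. The PD0325901 step passed without WT replicate 7 or 9 (adjusted p = 0.033 and 0.017), and that of RSKi47 without WT replicate 7, 8, or 9 (adjusted p = 0.012, 0.018, and 0.0069).

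Without LPS, all libraries with solvent or PD0325901 lay between 7.12 and 7.70. DMSO libraries had 7.35, 7.44, and 7.32, and PD0325901 libraries 7.30, 7.12, and 7.22 at 10 min, 7.45, 7.47, and 7.58 at 40 min, and 7.70, 7.62, and 7.55 at 70 min. The 10 min libraries lay below those of DMSO and of 40 and 70 min (0% of genes called lower than with DMSO at 10 min). Compared with 10 min, the level was higher by 0.29 ± 0.17 at 40 min (adjusted p = 0.46) and by 0.41 ± 0.17 at 70 min (adjusted p = 0.16), with 1.32% and 2.62% of genes called higher. Both passed when only the groups compared were fitted (adjusted p = 0.039 and 0.0093) and with array weights, as 0.30 and 0.45 (adjusted p = 0.0044 and 0.0002). With 3 libraries a group no exact permutation test of these groups can pass 0.05.

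The paralogs of *Kdm6b* changed by far less. *Kdm6a* (*Utx*), the X-linked relative of *Kdm6b*, rose in WT cells by 0.32 at both 0.5 and 1 h, and at 2 h was below its starting level (-0.35). At 1 h *Kdm6a* differed from WT by 0.02 in *Map3k8*[D270A], -0.03 in *Nfkb1*[SS/AA], -0.01 in PD0325901, and 0.08 in RSKi47 cells, none of which passed the test, and was higher by 0.24 in *Elk1*-/-*Elk4*-/- cells. *Uty*, the Y-linked relative, differed from 0 h by 0.17, 0.17, and -0.54 at the 3 times in WT cells, all of which passed. At 1 h *Uty* was lower than in WT in *Nfkb1*[SS/AA] (-0.30), PD0325901 (-0.19), and RSKi47 cells (-0.15), higher in *Elk1*-/-*Elk4*-/- cells (0.44), and at -0.05 in *Map3k8*[D270A] cells, which did not pass.

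The other histone demethylases changed in both directions. Of 18 listed, 17 were tested, and at 1 h of LPS in WT cells 7 were higher and 6 lower, with a median difference of 0.05 against 0.00 over all genes. All genes tested were called higher in 23.8% and lower in 23% of cases. Among the 17, 0 rose by a log2 difference of at least 1 at 0.5 and 1 h, where 0.623% and 3.2% of all genes did, and at 2 h *Kdm4a*, which acts on lysines 9 and 36, did (1.45, against 7.72% of all genes). *Kdm7a*, which acts on lysines 9 and 27, rose at all 3 times, by 0.42, 0.51, and 0.33. Against WT at 1 h, 2 of the 17 were higher and 0 lower in *Map3k8*[D270A] cells, where 5.14% and 4.64% of all genes were; at an unadjusted p below 0.05 the counts were 5 and 0, by limma's test. In *Elk1*-/-*Elk4*-/- cells 9 were higher and 3 lower (27.2% and 26.2% of all genes), in *Nfkb1*[SS/AA] cells 1 and 8 (20.5% and 21.9%), in PD0325901 cells 0 and 5 (16.4% and 19.3%), and in RSKi47 cells 8 and 3 (26.5% and 26.3%).

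Among the 11 PRC2 genes, which write the mark that KDM6B removes, 5 rose and 0 fell at 1 h in WT cells (23.8% and 23% of all genes). *Aebp2*, an accessory subunit, rose by 1.07 at 1 h and 2.14 at 2 h, and *Jarid2*, another, by 0.28 and 1.49. The catalytic subunit genes *Ezh1* and *Ezh2* had differences of -0.04 and 0.19 at 1 h, which did not pass. Of the 11, 0 passed limma's test between *Map3k8*[D270A] and WT cells at 1 h, where 5.14% of all genes were called higher and 4.64% lower. *Jarid2* (0.15) and *Phf1* (-0.15) had an unadjusted p below 0.05 at that time. At 2 h 0 of the 11 passed, where 14.6% of all genes were called higher and 13.1% lower. At 1 h 5 of the 11 were higher and 1 lower than in WT in *Elk1*-/-*Elk4*-/- cells (27.2% and 26.2% of all genes), 0 and 5 in *Nfkb1*[SS/AA] cells (20.5% and 21.9%), 3 and 2 in PD0325901 cells (16.4% and 19.3%), and 1 and 5 in RSKi47 cells (26.5% and 26.3%). Of 15 genes of the MLL/COMPASS complexes, which write the active mark on lysine 4, 1 rose and 4 fell at 1 h in WT cells, and of 11 further JmjC-domain genes 0 rose and 5 fell, among them *Jmjd4* (-0.64).

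**Figure D4:**
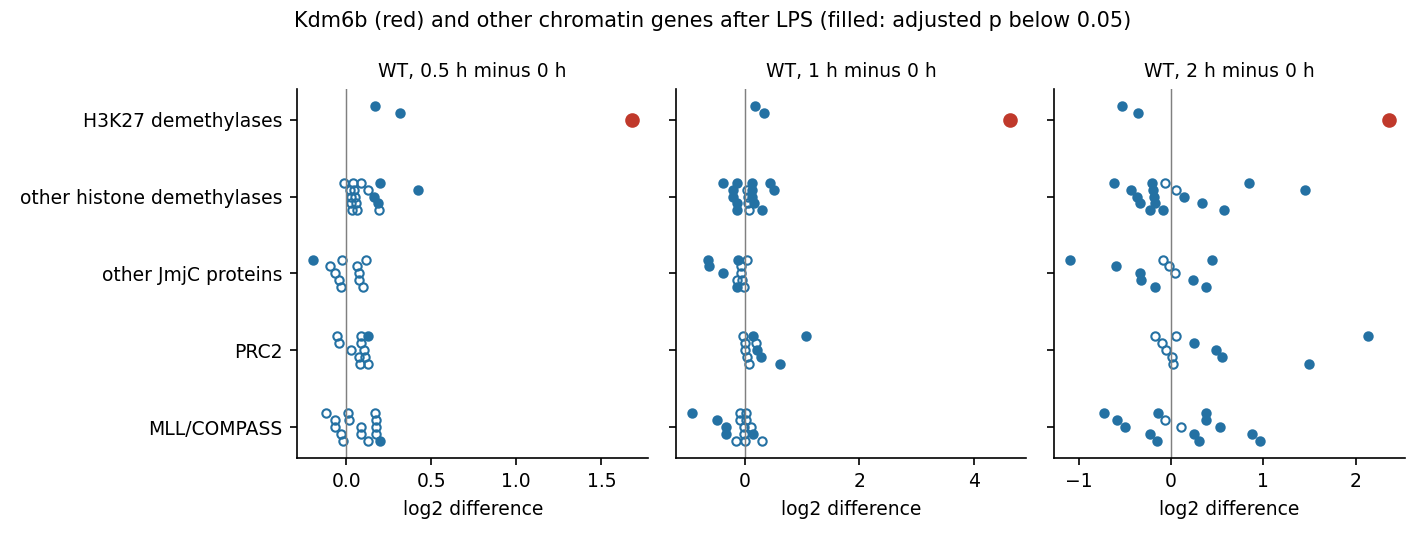
Log2 difference from 0 h in WT cells (horizontal axis, with its own scale in each panel) at 0.5, 1, and 2 h of LPS for genes of 5 chromatin lists (vertical axis). Each point is a gene, filled where the adjusted p was below 0.05, and *Kdm6b* is red. It stands at 1.68, 4.64, and 2.36, to the right of all other genes shown at each time.

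The neighbours of *Kdm6b* on chromosome 11 moved by far less. Of the nearest genes, 4 were tested. *Cyb5d1* differed from 0 h by -0.22 and *Naa38* by -0.10 at 1 h in WT cells, and on the other side *Wrap53* by -0.31 and *Trp53*, the p53 gene, by 0.21. All but *Naa38* passed the test at 1 h, where 23.8% of all genes were called higher and 23% lower. *Tmem88*, *Dnah2*, and *Efnb3* are in the table and lay below the filter.

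The pattern of *Kdm6b* over the 25 group means was most like those of *Rasgef1b* (Pearson r = 0.961), *Maff* (0.954), *Prdm1* (0.952), *Errfi1* (0.946), and *Zfp719* (0.945), followed by *Sde2*, *Spry1*, *Areg*, *Hilpda*, and *Rab20* (0.933). These are descriptions over groups that share experiments and LPS times, and 36 of 11970 genes exceeded 0.9. *Maff* encodes a small MAF factor, *Prdm1* the repressor BLIMP-1, *Errfi1* an inhibitor of EGF receptor signaling, *Spry1* a Sprouty inhibitor of ERK signaling, and *Areg* the EGF receptor ligand amphiregulin. Despite the like course, the arms moved them by different amounts. At 1 h *Errfi1* was lower than in WT by -1.73 in *Map3k8*[D270A] and by -1.20 in RSKi47 cells, whereas *Kdm6b* had -1.31 and 0.07. *Rasgef1b*, the closest, differed by only -0.09 in *Map3k8*[D270A] cells, which did not pass, and by -0.26 in *Elk1*-/-*Elk4*-/- cells. *Maff* was lower in all 5 arms, from -0.51 with RSKi47 to -1.15 in *Map3k8*[D270A] cells.

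**Figure D5:**
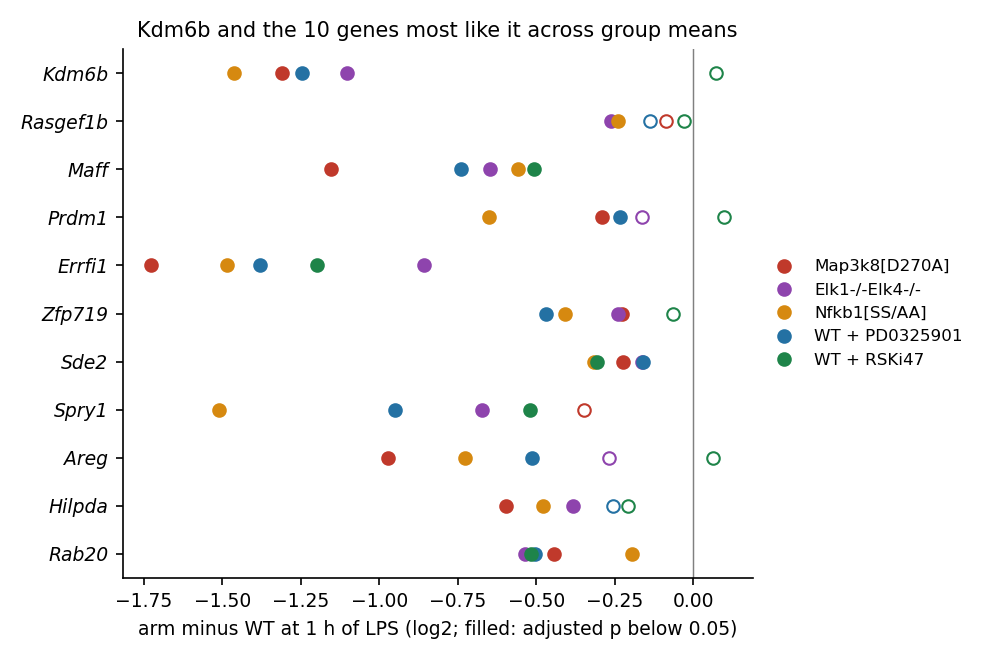
Difference from WT at 1 h of LPS (horizontal axis, log2) for *Kdm6b* and the 10 genes with the most similar group means (vertical axis, in order of similarity). Each color is an arm, and filled points passed an adjusted p of 0.05. *Kdm6b* lies from -1.46 to -1.10 in 4 arms and at 0.07 with RSKi47, and *Rasgef1b* from -0.26 to -0.03 in all 5.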

How the data were processed

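RNA-seq was done on 119 libraries of mouse BMDMs. The submitters' processing notes name STAR 2.5.1b, RSEM 1.2.29, DESeq2 1.10.1, and mm10. The values are log2 normalized expression, 1 per gene and library, as deposited by the authors; their transformation was not given in the sources used here. The depth of each library could therefore not be computed, and the number of libraries sets the precision. Values were used as deposited, except that 1 value of *Fosb* above a limit of 25 was replaced by the mean of its group.

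Differences were tested with limma 3.58.1 in R 4.3.3 and adjusted by Benjamini-Hochberg over all genes tested. The fit of WT, *Map3k8*[D270A], and *Elk1*-/-*Elk4*-/- cells used 62 libraries and 11884 genes (linear value of at least 10 in 4 libraries), and the fit over all libraries, used for the other arms, 11971 genes (at least 10 in 3). Genes with an adjusted p below 0.05 were called. Single values were also tested by exact two-sided permutation. The fits were tested on simulated data. The comparisons share the WT libraries and are not independent of each other. The genes most like *Kdm6b* were the 10 with the highest Pearson correlation over group means. *Kdm6b*, the gene lists, and the tests were chosen with earlier results of these data known. Alternatives were other filters, scalings, controls, array weights, a replicate block, and leaving out each replicate; using WT replicates 4 to 6 or 7 to 9 as the only control, the tests between replicate sets, and the tests of steps between times were added after seeing the data.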

Additional observations from a re-analysis of the deposited data

Results flagged for a closer look

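With PD0325901, replicate 5 at 1 h of LPS stood apart from the other 5 libraries of its group with a level of 11.05, against a highest value of 10.89 among them. Such a gap arises by chance in about 5% of groups, and 20 groups were checked.

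The response of *Kdm6b* to LPS differed from that of WT, by a test of the difference itself, in 4 arms. In *Map3k8*[D270A] cells the difference was -0.90, -1.34, and -1.20 at 0.5, 1, and 2 h. In *Elk1*-/-*Elk4*-/- cells it was -1.21 at 1 h and -1.34 at 2 h, and in the step from 0.5 to 1 h -1.27. In *Nfkb1*[SS/AA] cells it was -1.77 at 1 h and in the same step -1.57. With PD0325901 it was -0.78 at 0.5 h and -1.40 at 1 h. The calls at 0.5 h held in only 9 of 22 alternatives for *Map3k8*[D270A] and 12 of 23 for PD0325901. With a replicate block these differences were -0.90 and -0.79 and were not called (adjusted p = 0.25 and 0.11). These arms share the WT libraries, and for all but *Map3k8*[D270A] cells the arm and its experiment cannot be told apart.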

How the results depend on the processing

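Of 82 differences of *Kdm6b*, 60 kept their side of the threshold under every alternative run, and 6 of these, none of them called, changed sign, such as *Map3k8*[D270A] against WT at 0 h (-0.09 to 0.16). Direction and call both held for every rise with LPS and for the lower level at 1 and 2 h in *Map3k8*[D270A] and *Elk1*-/-*Elk4*-/- cells and at 1 h in *Nfkb1*[SS/AA] and PD0325901 cells. The comparisons with WT that changed, most of them at 0 or 0.5 h, follow with the adjusted p in parentheses; the cause was not tested, except where the control libraries themselves were changed. For *Map3k8*[D270A] against WT at 0.5 h, the difference was -0.87 (0.19) with only the groups compared, -0.27 (0.50) with a replicate block, and -0.36 (0.087) for WT replicates 4 to 6 with *Map3k8*[D270A] replicates 1 to 3. Its difference in response at 0.5 h was -0.90 with no filter (0.054), with only the groups compared (0.92), and with the block (0.25), -0.48 (1.0) with array weights, and -0.27 (1.0) in the lower replicates. For PD0325901 at 0.5 h, the difference was -0.23 (0.16) with the block and -0.20 (0.15) against WT replicates 4 to 6. Its difference in response was -0.78 with only the groups compared (0.23) and with repeated numbers averaged (0.053), -0.79 (0.11) with the block, -0.29 (0.11) with array weights, -0.12 (0.94) against WT replicates 4 to 6, and -0.49 (0.21) with 10 min of inhibitor as reference. For *Elk1*-/-*Elk4*-/- at 0.5 h, the difference was 0.50 (0.0016) with array weights, 0.72 (1.11e-06) against WT replicates 4 to 6, and -0.39 (0.0022) against replicates 7 to 9, and the difference in response 0.72 (0.0059) against replicates 4 to 6. For *Nfkb1*[SS/AA] at 0 h it was 0.31 (0.058) with no filter, 0.22 with array weights (0.086) and with the block (0.10), and 0.20 (0.18) against WT replicates 4 to 6. At 0.5 h it was 0.46 (0.00023) with array weights, 0.66 (9.68e-07) against replicates 4 to 6, and -0.45 (0.000469) against replicates 7 to 9, with a difference in response of -0.87 (8.16e-05) against the latter. For RSKi47 at 0.5 h it was 0.68 with only the groups compared (0.13) and in the exact permutation test (p = 0.095), and 0.12 (0.42) against WT replicates 7 to 9, which gave 0.27 (0.037) at 1 h. The difference in RSKi47 response was 0.66 (0.022) with array weights and 0.81 (0.0075) against WT replicates 4 to 6 at 0.5 h, -0.55 (0.023) against the latter at 1 h, and -0.42 (0.036) with only the groups compared at 2 h. The step difference of *Elk1*-/-*Elk4*-/- cells was -1.27 (0.098) with only the groups compared. With the block, *Elk1*-/-*Elk4*-/- against *Map3k8*[D270A] cells passed at 1 h (0.19, 0.029), and PD0325901 alone at 40 and 70 min against 10 min (0.031 and 0.0034), and at 70 min against DMSO (0.25, 0.044).

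Leaving out 1 replicate at a time, in 35 refits, gave -1.07 to -0.73 for the *Map3k8*[D270A] difference in response at 0.5 h, which was no longer called without WT replicate 7, 8, or 9 or *Map3k8*[D270A] replicate 1, 2, 3, 5, or 6. It gave -0.95 to -0.61 for that of PD0325901 (not called without WT replicate 7, 8, or 9 or PD0325901 replicate 2 or 3), and 0.27 to 0.35 for *Nfkb1*[SS/AA] at 0 h (not called without WT replicate 8 or 9 or *Nfkb1*[SS/AA] replicate 3, 4, or 5). It made 5 calls, for the steps from 0.5 to 1 h of PD0325901 (without WT replicate 7 or 9) and RSKi47 cells (without WT replicate 7, 8, or 9). Same-numbered libraries deviated together in every pair of times within WT and *Nfkb1*[SS/AA] cells, but not between arms. Between *Map3k8*[D270A] and WT at 0.5 h the same-number correlations were -0.42 to -0.06, whereas the shifts between WT replicates 4 to 6 and 7 to 9 and between *Map3k8*[D270A] replicates 1 to 3 and 4 to 6 correlated at 0.664 over genes, so the block crossed the sets and its -0.27 is no paired estimate. For the levels of *Nfkb1*[SS/AA] and PD0325901 cells against WT, the block likewise rested on the shared numbers 4 to 6 alone. There it largely repeats the comparison with WT replicates 4 to 6 and is no separate check. In the fit over all libraries, array weights were lower for WT replicates 7 to 9 than for 4 to 6 at every time. Median centring, quantile scaling, and a mean trend changed no call.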

Other observations

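Of 6 genes of alternative activation linked to *Kdm6b*, 4 were tested. *Irf4*, a transcription factor that has been named as a target of KDM6B, rose by 2.08 at 1 h of LPS and 0.50 at 2 h in WT cells. At 1 h it differed from WT by -0.14 in *Map3k8*[D270A], 0.03 in *Elk1*-/-*Elk4*-/-, and 0.21 in PD0325901 cells, which did not pass (adjusted p = 0.23, 0.80, and 0.079) and where *Kdm6b* was lower, and it was lower, with differences of -0.63 in *Nfkb1*[SS/AA] and -0.75 in RSKi47 cells. *Ccl17*, a chemokine gene, rose by 2.74 at 2 h in WT cells. *Mrc1* and *Chil3*, the genes of the mannose receptor and a chitinase-like protein, did not pass with LPS in WT cells. Against WT at 1 h, 3 of the 4 were higher in *Elk1*-/-*Elk4*-/- cells, where 27.2% of all genes were, namely *Chil3* (3.11), *Mrc1* (0.35), and *Ccl17* (0.28). Neutrophil marker RNA was higher in this arm too, at a log2 level of 10.04 to 11.04 against 6.24 to 7.74 in WT. Its part in these values, at 1 or 2 h, was not tested. In *Nfkb1*[SS/AA] cells 3 of the 4 were lower, where 21.9% of all genes were, namely *Irf4*, *Mrc1* (-0.44), and *Chil3* (-0.40). In RSKi47 cells *Irf4* and *Mrc1* (-0.78) were lower and *Chil3* higher (0.46), where 26.3% and 26.5% of all genes were, in PD0325901 cells *Mrc1* was lower (-0.25; 19.3% of all genes), and in *Map3k8*[D270A] cells 0 of the 4 passed limma's test, nor did any have an unadjusted p below 0.05 (5.14% of all genes were called higher and 4.64% lower). At 2 h 2 of the 4 were lower in *Map3k8*[D270A] cells, *Ccl17* (-0.70) and *Irf4* (-0.27), where 13.1% of all genes were, and both were also lower in the LPS response (-0.74 and -0.35, with 8.6% of all genes). At that time *Irf4* was lower (-0.65) and *Chil3* (3.56) and *Mrc1* (0.26) higher in *Elk1*-/-*Elk4*-/- cells (23.1% and 27.7% of all genes). In RSKi47 cells *Mrc1* (-0.78), *Ccl17* (-0.60), and *Irf4* (-0.40) were lower and *Chil3* (0.45) higher, where 24.6% and 27.5% of all genes were.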
